A study of Mus musculus with 40 samples.

Results

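DTL1 is a class of descending thin limb nuclei in the mouse kidney, named by the authors in the cell table deposited with single-nucleus RNA-seq counts. Its members are all nuclei that carry the name DTL1 in the coarser of the authors' class columns. There were 156 such nuclei among 16500, of which 47 came from sham 1, 20 from sham 2, 61 from UNx 1 and 28 from UNx 2. The mice were male C57BL/6 animals aged 8 to 12 weeks. In UNx mice the left kidney had been taken out (unilateral nephrectomy), and sham mice were sham operated. The right kidney was sampled 24 h later as a cross section, and the labels do not give its proportion of cortex and medulla. Nuclei were sorted by their DNA stain and counted as UMIs, tags that mark single captured RNA molecules. Sham 1 and UNx 1 belong to labelled batch 3, and sham 2 and UNx 2 to labelled batch 4. Bulk RNA-seq of the right kidney gave a further 36 libraries, 6 per group at 24 h (batch 1), 48 h and 72 h (batch 2). Nothing in the labels says more of how replicates were raised, so p-values measure the spread between these samples.

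The thin limbs of the loop of Henle take part in concentrating the urine. The descending limb of long loops is highly permeable to water through the channel aquaporin 1, encoded by Aqp1. The lower descending limb of short loops is known instead for the urea transporter UT-A2, an Slc14a2 product that returns urea towards the inner medulla. The inner medullary collecting duct makes other products of the same gene.

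DTL1 nuclei held Slc14a2 at a high level and Aqp1 at the level of classes outside the descending limb. Slc14a2 stood at 5243 raw CPM in sham 1 (UMIs of the gene per 1000000 UMIs of the class in that mouse), 1752 in sham 2, 2573 in UNx 1 and 1962 in UNx 2. The other thin limb classes DTL2, DTL3-ATL and ATL averaged 61.7, 40.8 and 62.9 raw CPM over the 4 mice, and the class MPC averaged 11413. Aqp1 stood at 42.0, 35.8, 20.8 and 83.5 raw CPM in DTL1, from 11, 8, 7 and 17.9 UMIs (the deposited counts are estimates and need not be whole). Its mean of 45.5 ± 26.8 (SD, n = 4) was the 12th highest of 24 classes and close to the 46.7 of PTS1 and the 39.8 of MTAL. DTL2 averaged 306 ± 63.8 and DTL3-ATL 238 ± 64.0, with no overlap with DTL1. Of the 2 markers given for the class, Slc14a2 stood out and Aqp1 lay within the range of classes outside the descending limb.

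**Figure D1:**
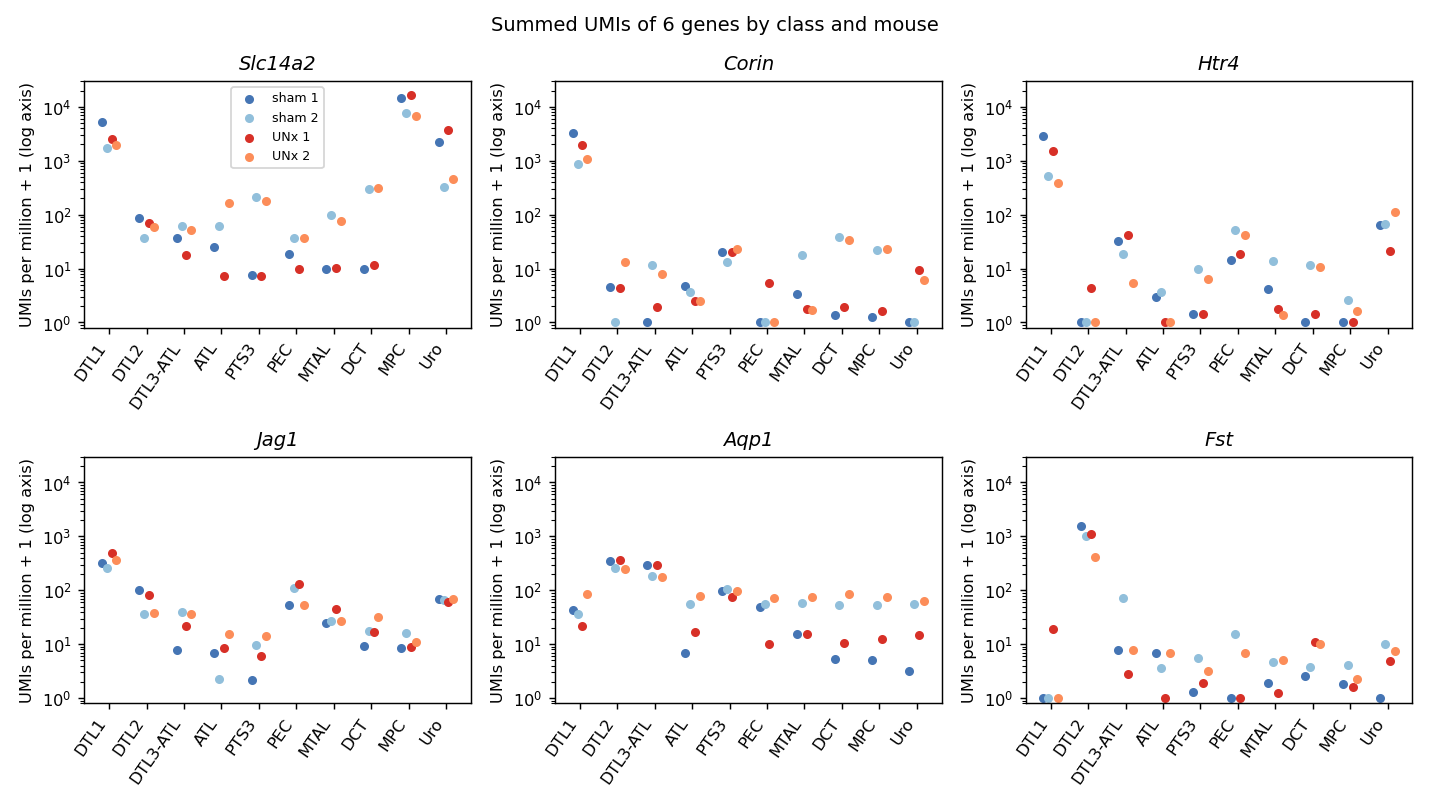
Raw CPM plus 1 (log axis) of 6 genes in 10 of the authors' classes, 1 point per mouse. Slc14a2 is high in DTL1, MPC and Uro, Corin and Htr4 are highest in DTL1, and Aqp1 and Fst are higher in DTL2 than in DTL1.

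Single genes separated DTL1 from the other classes. These are descriptions, since the class was made from the same counts. Genes were ranked by the lowest value over the 4 mice of the log2 ratio of DTL1 to the highest other class of that mouse, with 5 raw CPM added to both. Of 3216 genes with at least 10 UMIs in every mouse, 40 stood above every other class in every mouse, and 5 did so by more than 2-fold. Only classes with at least 10 nuclei in the mouse were compared. Corin led. It encodes the serine protease that activates the precursor of atrial natriuretic peptide, and it lies at chr5:72300025-72504473 on the minus strand (mm10). Corin stood at 3223 raw CPM in sham 1, 860 in sham 2, 1990 in UNx 1 and 1068 in UNx 2, while the other thin limb classes stayed at 4.86 or lower on average. DTL1 gave 59.6% of all Corin UMIs in the table from 0.619% of all UMIs. Htr4, a serotonin receptor, stood at 2838, 513, 1495 and 387 raw CPM, and 68.8% of its UMIs came from DTL1.

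The remaining leading genes covered matrix, signalling and transcription factors. Nid2, a basement membrane nidogen, averaged 346 raw CPM against 99.0 in DTL2, the next class. The adhesion receptor Adgrv1 averaged 567 and the synaptic scaffold gene Shank2 averaged 3304, against 1221 for Shank2 in DTL2. Jag1, a Notch ligand at chr2:137081456-137116644 on the minus strand, stood at 325, 255, 492 and 369 raw CPM with ICB next at a mean of 178 and DTL2 at 63.3. Transcription factor genes among the 20 included Uncx, Foxc1, Hoxb5 and Hoxb6. Hoxb6 averaged 575 raw CPM, with DTL2 next at 364. Arrdc3, Chst8, Eva1c, Mcph1, Senp5, Asap3, Ifit3, BC016579 and 4930523C07Rik were also on the list. Their DTL1 means ran from 76.3 for Asap3 to 625 for Chst8.

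Against the other thin limb classes alone, 252 genes stood higher in every mouse, 11 of them by more than 4-fold. Besides Corin, Htr4, Slc14a2 and BC016579, the first 10 were Slit3, Eya2, Aox3, Tshr, Anxa3 and E230016K23Rik. Slit3, a secreted ligand of Robo receptors, averaged 1625 raw CPM in DTL1 and 14.1 in DTL2. Tshr, the thyrotropin receptor, averaged 487 against 8.45 in DTL2. The genes lowest in DTL1 against all 3 other classes were led by Spon1, a secreted matrix protein, with 65.4 raw CPM against 444 in DTL2 and 665 in ATL. Cgnl1, a tight junction protein, averaged 502 against 2207 in ATL.

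The list of 20 descending thin limb markers was divided between the classes. Corin, Jag1 and Slc14a2 are described above, and the adhesion receptor Adgrl3 stood at 288, 66.9, 142 and 51.5 raw CPM against at most 37.7 in any mouse of DTL2 or DTL3-ATL. The aldose reductase Akr1b3, which makes the osmolyte sorbitol, stood at 74.2 to 270 in DTL1 and 927 to 1767 in DTL3-ATL. Epha7, an ephrin receptor, stood at 139 to 163 in DTL1 and 525 to 1456 in DTL3-ATL. Fst (follistatin) had no UMI in 3 of the 4 mice of DTL1, where UNx 1 had 17.8 raw CPM, and stood at 409 to 1579 in DTL2. Wnt7b stood at 38.2 to 91.1 in DTL1 and 141 to 221 in DTL3-ATL. Bst1 at 91.9 to 217, Cryab at 180 to 375 and Slc39a8 at 35.8 to 248 were detected in every mouse. Sptssb and Lrrc4c stayed at 31.5 raw CPM or below, Vcam1 was at 0 in all 4 mice, and Unc5d and Cldn1 had at most 2 UMIs in a mouse.

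Batch and other cell types marked the class as well. The mitochondrial share of its UMIs was 1.03% in sham 1 and 1.70% in UNx 1 but 6.39% in sham 2 and 10.7% in UNx 2. The 10 markers of proximal tubule S1 and S2 together took 0.0592% of DTL1 UMIs in sham 1, 0.579% in sham 2, 0.0546% in UNx 1 and 0.281% in UNx 2, against 1.35% to 1.86% in PTS1. The 8 thick ascending limb markers took 0.0424%, 0.423%, 0.0307% and 0.343%. Podocyte markers took 0.00913% to 0.0812%, with Nphs1 at 0 in every mouse. Endothelial markers took 0.00436% to 0.0444%, and immune, fibroblast and adipocyte markers at most 0.0127%, with Cd3e, Ms4a1, Myh11 and Lep at 0 throughout. Batch 4 also held 3 nuclei with more than 3 times the class's median UMI total in their mouse. The single such nucleus of sham 2, with 63889 UMIs, gave 28.6% of that mouse's DTL1 UMIs, and 2 such nuclei gave 28.7% in UNx 2. The summed counts of the class were 261628, 223328, 337105 and 214161 UMIs in sham 1, sham 2, UNx 1 and UNx 2. Median depth was 5261, 7280, 5541 and 5878 UMIs per nucleus in the same order, and no DTL1 nucleus shared its barcode with another library.

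The share of nuclei in DTL1 overlapped between sham and UNx mice. DTL1 made up 0.880% of nuclei in sham 1 (95% Clopper-Pearson interval 0.647% to 1.17%), 0.757% in sham 2 (0.463% to 1.17%), 1.18% in UNx 1 (0.907% to 1.52%) and 0.832% in UNx 2 (0.553% to 1.20%). The intervals cover counting error only. The groups overlap, with sham 1 above UNx 2, and the log2 ratio of the mean shares was 0.30. It was 0.02 without UNx 1 and -0.05 when counted among thin limb nuclei. With 2 mice against 2, an exact permutation test cannot give a two-sided p below 0.333.

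Within the class, nuclei fell into those rich in Slc14a2, Corin and Htr4 and those with almost none. The summed rate of the 3 genes was 0 in 42 nuclei and at least 20 UMIs per 10000 in 79 nuclei, with 19 between 5 and 20. A threshold of 10 per 10000, set after the rates were seen, called 86 nuclei high and 70 low. High nuclei made up 33 of 47 (70.2%, interval 55.1% to 82.7%) in sham 1 and 14 of 20 (70.0%, 45.7% to 88.1%) in sham 2. They made up 26 of 61 (42.6%, 30.0% to 55.9%) in UNx 1 and 13 of 28 (46.4%, 27.5% to 66.1%) in UNx 2. Both UNx mice lay below both sham mice, with a mean difference of -25.6 percentage points. The order held at thresholds of 5 (76.6% and 80.0% against 54.1% and 46.4%) and 20 (70.2% and 60.0% against 34.4% and 46.4%). It also held without the nuclei of very high UMI total, at 70.2% and 68.4% against 42.6% and 46.2%. Median rates of high nuclei per 10000 were 151 in sham 1, 32.9 in sham 2, 111 in UNx 1 and 66.8 in UNx 2. At some thresholds above 20 sham 2 lay below both UNx mice, so the order depends on the threshold. No p below 0.333 is possible here either.

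**Figure D2:**
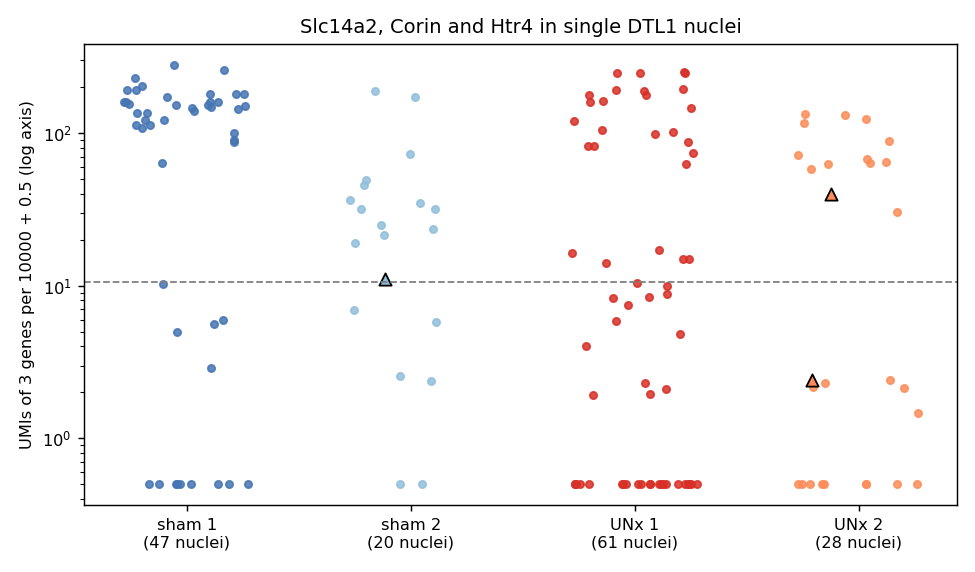
Summed UMIs of Slc14a2, Corin and Htr4 per 10000 UMIs plus 0.5 (log axis) in each of the 156 DTL1 nuclei, by mouse; triangles are the 3 nuclei of very high UMI total and the dashed line is the threshold of 10. Most nuclei lie well above the line or at 0, and 19 lie between 5 and 20, 12 of them in UNx 1.

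Counted gene by gene the same order was less even. Corin had a UMI in 72.3% of nuclei in sham 1, 65.0% in sham 2, 45.9% in UNx 1 and 50.0% in UNx 2. Each nucleus was then thinned, in 1 random draw, to 1 common number of UMIs, below the 1779 of the shallowest nucleus. The Corin shares became 70.2%, 45.0%, 37.7% and 46.4%, with sham 2 just below UNx 2. The intervals of those 2 mice were 23.1% to 68.5% and 27.5% to 66.1%, so their order is not settled. Slc14a2 after thinning was found in 70.2% and 65.0% of sham nuclei and 39.3% and 50.0% of UNx nuclei. For Htr4 the thinned shares were 74.5% and 40.0% in sham and 39.3% and 28.6% in UNx. In MTAL, which serves as background, thinned Slc14a2 was found in 1.50% and 11.9% of sham nuclei and 1.47% and 7.91% of UNx nuclei, at median depths of 6134 to 7250 UMIs. The threshold of 10 called 2.36% of DTL2 nuclei and 0.185% of MTAL nuclei high. Outside the thin limbs it also called 88.7% of MPC nuclei, 36.9% of Uro, 20.0% of Per and 5.76% of Podo.

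Low nuclei held some leading genes of the class at or above the level of high nuclei and others below it. All values here are descriptions, since the 2 kinds of nuclei were separated on these counts. Slit3 stood at 3595, 916, 2801 and 1167 raw CPM in the low nuclei of sham 1, sham 2, UNx 1 and UNx 2, and at 1838, 479, 2412 and 849 in the high nuclei. Jag1 and Nid2 also stood above their level in the high nuclei of the same mouse in all 4 mice. Adgrv1 stood lower in low nuclei in all 4 mice, at 528, 210, 412 and 166 raw CPM against 983, 260, 1169 and 656. Ifit3, an interferon-induced gene, stood lower in 3 of 4, at 140, 60.1, 135 and 49.1 against 237, 52.6, 176 and 152. Prss12, a secreted protease, had no UMI in the low nuclei of any mouse, and stood at 58.1 to 406 raw CPM in the high nuclei. Tshr stood at 31.4 to 143 in low nuclei and 252 to 1354 in high nuclei, and Angpt2, an angiopoietin, at 8.92 to 190 and 377 to 2854. Itpk1, an inositol phosphate kinase, went the other way, at 285 to 616 raw CPM in low nuclei and 19.6 to 36.8 in high nuclei. The potassium channel gene Kcnc2 stood at 187 to 240 in low nuclei and 0 to 71.9 in high nuclei. Cp, the copper-binding ferroxidase ceruloplasmin, stood at 126, 597, 680 and 409 in low nuclei against 52.6, 100.0, 157 and 61.6 in high nuclei. Its mean was 331 in DTL2 and 775 in PEC. Low nuclei were also shallower, with medians of 4505 to 5546 UMIs against 5736 to 8465, and the part of depth in these levels was not tested.

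Over all DTL1 nuclei, no gene passed the test of UNx against sham. Of 5205 genes tested on summed counts with edgeR's quasi-likelihood test, 0 (0.0%) had an adjusted p under 0.05 and 37 (0.711%) had an unadjusted p under 0.05. DESeq2's Wald test also called 0, with 15 at the unadjusted level, and limma voom called 0 with 48. Over all tested genes the median log2 difference was -0.03. Fixing the labelled batch as a replicate block called 27 genes (0.519%), 7 higher and 20 lower in UNx. With so few mice the block leaves little spread within a gene to measure. Its p-values, here and below, rest almost wholly on spread shared across genes, and are less sure than they look. The block without the 3 nuclei of very high UMI total called 0 of 4539 (0.0%), with 249 at the unadjusted level. Leaving out UNx 2 gave 20 calls, leaving out sham 2 gave 1, and leaving out sham 1 or UNx 1 gave 0. With no filter on low counts, 6 of 16595 genes (0.0362%) were called. Below, levels are CPM normalised by library size factors on the scale of that fit, and genes are named by their rank in p, with no change claimed.

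The 10 genes of lowest p that stood higher in UNx included growth-factor signalling and cytoskeletal genes. Pik3r3, a regulatory subunit of phosphoinositide 3-kinase, had the lowest p. It stood at 59.1 and 47.6 CPM in sham and 178 and 192 in UNx, a log2 difference of 1.77 (SE 0.42, unadjusted p = 0.0051, edgeR adjusted p = 1.00). The groups were well apart, from 9 to 56 UMIs per mouse, and with the batch fixed the edgeR adjusted p was 0.026. With the batch fixed and the 3 nuclei of very high UMI total left out, the log2 difference was 1.83 and the adjusted p was 0.31. Hbegf, a ligand of the epidermal growth factor receptor, stood at 33.8 and 31.8 CPM in sham and 92.2 and 130 in UNx. Ankrd1, a stress-responsive ankyrin repeat protein, stood at 84.4 and 68.8 in sham and 223 and 186 in UNx. Rras2, a small GTPase, stood at 190 and 222 against 381 and 536. The integrin chain gene Itga3 stood at 54.9 and 37.0 against 92.2 and 180, and the tyrosine phosphatase gene Ptpn12 at 76.0 and 58.2 against 137 and 169. Tacc1, a centrosomal protein, stood at 182 and 206 against 458 and 361. Nop58, a core protein of small nucleolar ribonucleoproteins, stood at 25.3 and 15.9 against 66.8 and 84.6. Ccdc88c and C1qtnf7 completed the 10, with log2 differences of 1.55 and 1.11.

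Genes of lowest p that stood lower in UNx were led by a transporter. Slc16a10, a carrier of aromatic amino acids and thyroid hormone, stood at 321 and 318 CPM in sham and 140 and 101 in UNx. Its log2 difference was -1.39 (SE 0.39, edgeR adjusted p = 1.00). The adjusted p was 0.026 with the batch fixed, and 0.30 at a log2 difference of -1.36 with the nuclei of very high UMI total also left out. Gpcpd1, which breaks down the renal osmolyte glycerophosphocholine, stood at 101 and 185 against 50.9 and 50.7. Trpm3, a cation channel, stood at 118 and 89.96 against 31.8 and 39.5. Dixdc1, a Wnt pathway protein, stood at 84.4 and 84.7 against 25.4 and 11.3. Pde10a, a cyclic nucleotide phosphodiesterase, stood at 110 and 74.1 against 9.54 and 33.8. Its adjusted p was 0.050 with the batch fixed. Epb41l3, a membrane skeleton protein, stood at 106 and 217 against 63.6 and 39.5. Spata13, Zfp871, Greb1l and Frmd4b were the others, with log2 differences from -1.21 to -1.48. In none of these 20 genes did the groups overlap, as their selection favours. Over all tested genes the groups did not overlap in 12.1%, higher in UNx, and 12.1%, lower.

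**Figure D3:**
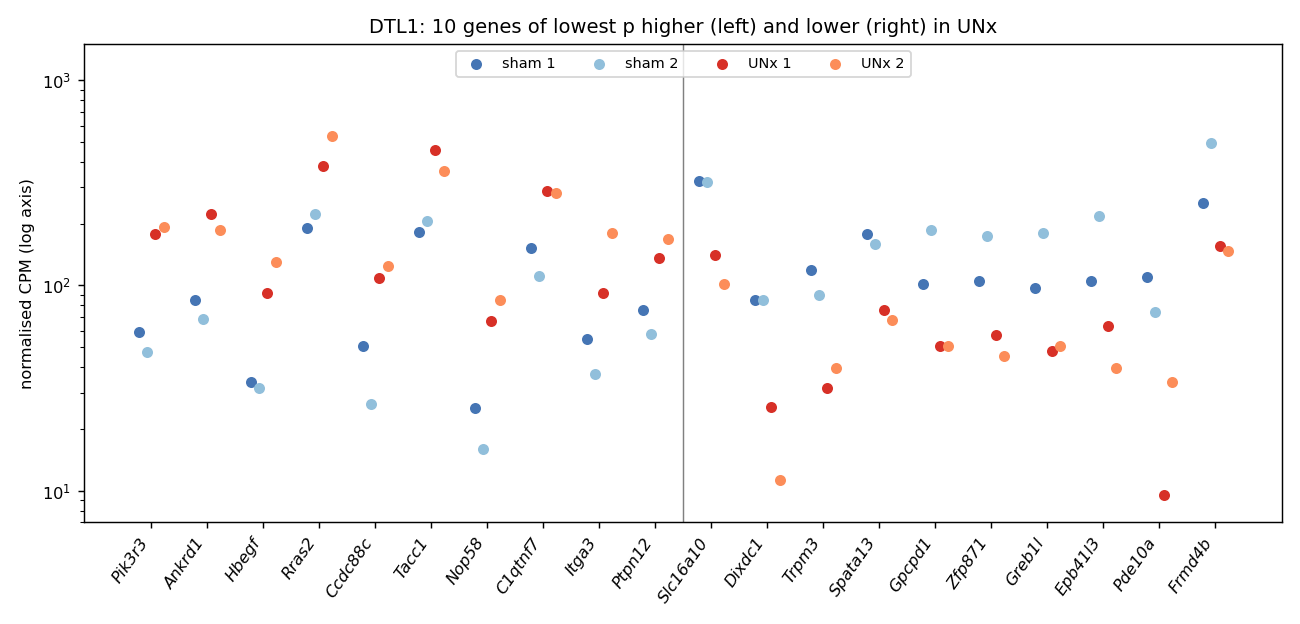
Normalised CPM (log axis) of the 10 genes of lowest p higher (left) and lower (right) in UNx in DTL1, 1 point per mouse. Both UNx mice lie on the same side of both sham mice for each gene, and no gene passed the adjusted threshold.

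The genes higher in UNx included some that marked the low nuclei. When only high nuclei were summed, 0 genes passed, with 32 at the unadjusted level. All 10 genes named as lower were tested there, and all 10 had a log2 difference below -1, with a median of -1.37. Slc16a10 was at -1.25 and Dixdc1 at -1.87. Counts there were small for some genes. Dixdc1 had 20, 15.9, 6 and 1 UMIs in high nuclei of sham 1, sham 2, UNx 1 and UNx 2. Pde10a had 2 UMIs in those of each UNx mouse. The genes of both directions were selected on all DTL1 nuclei, which include the high ones. A shared direction was therefore favoured in advance and adds no separate evidence. Of the 10 named as higher, 6 had enough counts. Pik3r3 was at 1.69, C1qtnf7 at 1.60, Ccdc88c at 1.38, Tacc1 at 0.90 and Ptpn12 at 0.64, while Rras2 was at -0.25. Ankrd1, Hbegf, Nop58 and Itga3 had too few counts in high nuclei to be tested. Hbegf had 6 and 5 UMIs in the high nuclei of sham 1 and sham 2 and 4 and 0 in those of UNx 1 and UNx 2. In the low nuclei it had 2 and 1 UMIs in sham and 25 and 23 in UNx, or 28.0 and 30.0 raw CPM against 136 and 205. Ankrd1 in low nuclei stood at 126 and 150 raw CPM in sham and 343 and 259 in UNx. Rras2 stood at 267 and 481 against 540 and 759. The low nuclei of the sham mice numbered 14 and 6, and the part of the mix of nuclei in these differences was not tested.

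**Figure D4:**
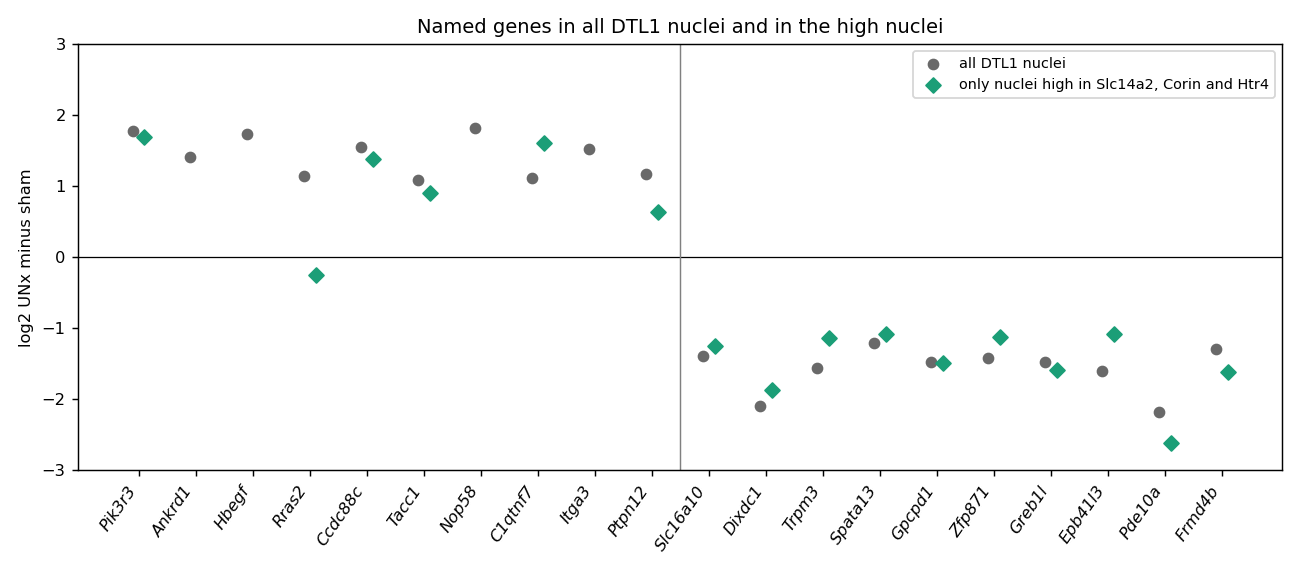
Log2 difference of UNx minus sham for the 20 named genes over all DTL1 nuclei (circles) and over nuclei high in Slc14a2, Corin and Htr4 (diamonds, drawn for the 16 genes tested there). Of these 16, Rras2 alone changes side, from 1.15 to -0.25. The genes were selected on all DTL1 nuclei, which include the high ones, so a shared side was favoured.

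The genes that define the class did not separate the groups. Slc14a2 stood at 5792 and 2069 CPM in sham and 2759 and 2367 in UNx, with a log2 difference of -0.62 (SE 0.68, edgeR adjusted p = 1.00). Corin stood at 3559 and 1016 against 2133 and 1291 (-0.42, SE 0.71), and Htr4 at 3137 and 603 against 1602 and 468 (-0.85, SE 0.92). All 3 were lower in UNx 1 than in sham 1. Within batch 4, Slc14a2 and Corin were higher in UNx 2 than in sham 2, and Htr4 was lower. Without sham 1 their log2 differences were 0.37, 0.82 and 0.85. Of the 20 leading genes, all tested, 8 had a log2 difference above 0 and 12 below, with a median of -0.09 against -0.03 over all genes. The groups did not overlap for 3 of the 20, Jag1, Hoxb6 and Senp5, all higher in UNx, beside 12.1% of all tested genes. Jag1 stood at 359 and 302 CPM in sham and 528 and 445 in UNx, a log2 difference of 0.56 (SE 0.35). Of the 20 descending thin limb markers, 12 were tested, 7 of them above 0, with a median of 0.14. In this list Bst1 and Jag1 were higher and Cryab lower without overlap. For Bst1 the groups nearly touched, at 118.2 CPM in sham 1 and 118.4 in UNx 2.

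No gene of any list was called in the main test. With the batch fixed the calls in the lists were Cp (injury), Ndrg1 (hypoxia), mt-Nd3 (mitochondrially encoded), and Slc5a12 and Gatm (proximal tubule). None of the 5 was called with the batch fixed and the nuclei of very high UMI total left out. For Ndrg1 the edgeR adjusted p went from 0.034 to 0.80, for mt-Nd3 from 0.050 to 0.27 and for Gatm from 0.026 to 0.27. Beside each list's genes without overlap stand the 12.1% of all tested genes in each direction. In the list of IGF, EGF and FoxO signalling, 16 of 24 genes were tested, 8 on each side of 0, with a median of -0.07. Igf1r, Egfr and Hbegf (3 of 16) were higher and Igf2r and Rptor (2 of 16) lower without overlap. In tubular injury and repair, 7 of 18 were tested with a median of 0.41. Cp, with a log2 difference of 1.43 (SE 0.56), stood at 80.2 and 206 CPM in sham and 474 and 293 in UNx. Its edgeR adjusted p was 1.00, and 0.010 with the batch fixed. With the nuclei of very high UMI total also left out the difference was 1.43 and the adjusted p 0.44. When only nuclei high in Slc14a2, Corin and Htr4 were summed, the Cp difference was 0.46. In low nuclei Cp stood at 126 and 597 raw CPM in sham and 680 and 409 in UNx, with the groups overlapping. Vcam1, an injury marker, was at 0 in DTL1. In JAK-STAT, 7 of 15 were tested with a median of -0.16. Stat3 stood at 101 and 84.7 against 216 and 158 without overlap, while Stat5b was the lower gene without overlap. Of osmolyte and tonicity genes, 8 of 14 were tested with a median of 0.30. Sorbs2 was higher without overlap, and the taurine transporter gene Slc6a6 and the chaperone gene Cryab lower. Of 14 tested thin limb ion transport and tight junction genes the median was -0.31, and the potassium channel gene Kcnj16 stood at 258 and 471 against 134 and 209.

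Lists of metabolism and stress differed in how many of their genes could be tested. Cholesterol synthesis had 6 of 25 genes tested, 5 above 0, with a median of 0.26 and only Nsdhl without overlap. Fatty acid oxidation had 17 of 25 tested with a median of -0.08, and Cpt1a, which admits fatty acids to mitochondria, was lower without overlap. The unfolded protein and ATF4 list had 8 tested, 7 above 0, with a median of 0.26. Notch and developmental regulators had 7 tested with a median of -0.01. Of G1 cyclins and their regulators 4 were tested, all below 0, and Ccnd1 stood at 59.1 and 63.5 CPM in sham and 15.9 and 45.1 in UNx. Of DNA replication genes only Pola1 was tested, and no mitosis gene was. NRF2 targets, hypoxia, glucocorticoid, immediate early and circadian genes had 3 to 8 tested, with medians of -0.12, -0.16, -0.36, 0.50 and 0.10. Cytosolic ribosomal protein genes had 29 tested with a median of 0.08, and nuclear genes of the respiratory chain had 20 with a median of -0.03. All 12 mitochondrially encoded genes tested lay above 0 with a median of 0.89, beside the mitochondrial shares given above. For mt-Atp8 the difference was 1.42, and -0.64 without UNx 2. Markers of proximal tubule S1 and S2 took their highest share in sham 2. Those of the thick ascending limb were raised in both sham 2 and UNx 2. The 10 proximal tubule S1 and S2 genes had a median of -1.08, and Slc5a12 stood at 38.0, 545, 22.3 and 62.0 CPM in sham 1, sham 2, UNx 1 and UNx 2. Its log2 difference was -2.83, 0.10 without sham 2 and -1.67 without the nuclei of very high UMI total. The edgeR adjusted p of 1.00 was 2.1e-04 with the batch fixed, and 0.78 with those nuclei also left out. It was 0.034 without UNx 2 and 0.020 with no filter on low counts. The part of other cell types in the 27 calls under the block was not tested.

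The effect of UNx in DTL1 was compared with that in DTL2, DTL3-ATL and PTS3 by an interaction term with the mouse as a block. No gene passed in any of the 3 comparisons. The counts were 0 of 6263 (0.0%) against DTL2, 0 of 7170 (0.0%) against DTL3-ATL and 0 of 13434 (0.0%) against PTS3. At an unadjusted p under 0.05 they were 231, 275 and 185 genes, and DESeq2's Wald test called 0, 0 and 1. A class-by-batch term gave 22, 5 and 37 calls. Like the replicate block, that term leaves little spread within a gene to measure, so its small p-values are less sure than they look. Leaving out sham 1 gave 36, 20 and 57 calls, leaving out sham 2 gave 2, 9 and 23, and leaving out UNx 1 or UNx 2 gave 0. Without the 3 nuclei of very high UMI total, the main test called 0 in all 3 comparisons.

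The gene of lowest p against PTS3 was Cish, a cytokine-induced inhibitor of STAT5 signalling. It stood at 34.5 and 45.2 CPM in sham and 37.4 and 36.5 in UNx in DTL1. In PTS3 it stood at 84.7 and 68.4 in sham and 1.04 and 3.60 in UNx. The difference of the effects was 5.12 on the log2 scale (SE 0.76, unadjusted p = 1.8e-04, edgeR adjusted p = 1.00). The adjusted p was 1.4e-09 with the class-by-batch term, 0.030 in DESeq2, and 0.0010 and 2.1e-05 without sham 1 and sham 2. Without the nuclei of very high UMI total and without that term, the difference was 5.45 (edgeR adjusted p = 0.26). Cp came next on that side, with a difference of 3.10 (SE 0.60, edgeR adjusted p = 1.00), and on the other side were Pcbp3 at -2.12, Peg3 at -3.02 and Dhdh. For Dhdh no size is given, since it had no UMI in DTL1 of either UNx mouse.

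Against DTL3-ATL, Cp had the lowest p. It stood at 287 and 191 CPM in sham and 171 and 130 in UNx in DTL3-ATL, and at 75.4 and 187 against 447 and 269 in DTL1. The difference was 2.18 (SE 0.49, edgeR adjusted p = 0.90, and 7.6e-05 with the class-by-batch term). Within DTL1, Cp stood higher in low than in high nuclei of the same mouse, as given above. The part of the mix of nuclei in its differences from DTL3-ATL and PTS3 was not tested. Ccdc88c followed with 3.32 and Runx1 with 3.84. The size for Runx1 is uncertain, since in DTL1 it stood at 7.94 and 0 CPM in sham and 51.0 and 25.8 in UNx. On the lower side were Slc12a1 at -1.99 and Slc12a3 at -2.34, cotransporters of the thick ascending limb and distal tubule, beside the marker shares given above, and Gas7, for which no size is given since it had no UMI in DTL1 of either UNx mouse. Both cotransporters had an edgeR adjusted p of 0.90 in the main test. The class-by-batch term gave edgeR adjusted p-values of 4.4e-05 and 1.6e-04 for the cotransporters. Without the 3 nuclei of very high UMI total and without that term the differences were -2.25 and -2.55 (edgeR adjusted p = 0.29 and 1.00), and that of Cp was 2.07 (1.00). Against DTL2 the higher genes were Lypd6b at 2.30, Creb5 at 4.16 and Phactr1 at 3.68. The sizes for Creb5 and Phactr1 are uncertain. Creb5 in DTL1 stood at 4.07 and 0 CPM in sham and 97.8 and 21.4 in UNx. Phactr1 in DTL2 stood at 7.48 and 801 in sham and 0 and 110 in UNx. Lypd6b stood at 122 and 64.7 against 266 and 134 in DTL1, and at 311 and 194 against 153 and 66.1 in DTL2. The lower genes were the transporter genes Abcc2 at -3.64 and Slc5a12 at -3.71, and Aoah. Aoah had no UMI in DTL2 of either sham mouse and is given no size. The sizes for Abcc2 and Slc5a12 are uncertain too. In DTL1, Abcc2 stood at 36.6 and 328 CPM in sham and 18.3 and 80.4 in UNx. In DTL2 it stood at 7.48 and 51.7 against 29.1 and 213. Slc5a12 stood at 36.6 and 513 against 21.4 and 59.0 in DTL1, and at 18.7 and 51.7 against 36.4 and 206 in DTL2. DTL2 of sham 2 came from 11 nuclei. All 6 had adjusted p-values of 0.99 to 1.00 in the main test and 0.0039 to 0.022 with the class-by-batch term. Without the nuclei of very high UMI total and without that term all 6 had an edgeR adjusted p of 1.00, and the difference of Slc5a12 was -2.83.

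Leading genes of DTL1 were then read in the bulk libraries, where fewer cells of a type and less RNA per cell cannot be told apart. Bulk values come from every cell of the kidney. In the nucleus table DTL1 gave 59.6% of Corin UMIs, 12.5% of those of Jag1, 11.9% of Foxc1, 5.87% of Mcph1, 4.88% of Shank2 and 1.86% of Senp5. At 24 h 17 of the 20 were tested, and 3 passed, 1 higher and 2 lower, where 27.3% of all genes passed, 14.2% higher and 13.1% lower. At 48 h 15 were tested and 3 passed, all lower, where 32.9% of all genes passed, 16.9% higher and 16.0% lower. At 72 h 17 were tested and 0 passed, where 1.71% of all genes passed, 1.21% higher and 0.502% lower. The medians of the tested leading genes were -0.16, -0.16 and 0.02 at 24, 48 and 72 h, against 0.01, -0.04 and -0.0042 over all genes.

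Corin fell at 48 h by 1.52 on the log2 scale (SE 0.46, edgeR adjusted p = 0.022, 6 against 6). Its CPM ran from 1.89 through a median of 6.33 to 11.3 in sham and from 0.220 through 2.55 to 3.62 in UNx. The groups overlap, with 2 of the 6 UNx libraries below every sham library. The adjusted p was 0.056 without sham replicate 2, 0.056 with a replicate block, and lay between 0.00979 and 0.056 over all alternatives. At 24 h the median was 8.97 in sham and 5.40 in UNx, a log2 difference of -0.41 (edgeR adjusted p = 0.44). At 72 h it was 5.46 and 4.598, a difference of -0.49 (edgeR adjusted p = 0.37). Slc14a2 was low in several of the libraries with low Corin. The UNx 48 h libraries with the lowest Corin, at 0.220 and 0.888 CPM, had 1.54 and 10.6 CPM of Slc14a2, and the other 4 had 44.5 to 57.5. The sham 24 h libraries with the lowest Corin, at 1.75 and 3.13, had 11.7 and 24.2 against 87.9 to 149 in the other 4. At 72 h UNx replicate 6 went the other way, with 2.19 CPM of Corin, the second lowest of its group, and 189 of Slc14a2, the highest. The part of this shared variation in the Corin difference was not tested.

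Jag1 and Senp5 also fell at 48 h. Jag1 ran from 14.3 through 19.9 to 23.4 CPM in sham and from 11.0 through 12.7 to 14.3 in UNx, with all 6 UNx libraries below every sham library. The log2 difference was -0.62 (SE 0.11, edgeR adjusted p = 0.0015). Senp5, a protease of SUMO conjugates, ran from 26.6 through 27.6 to 29.3 in sham and from 20.1 through 23.3 to 26.4 in UNx, again without overlap (log2 difference -0.26, SE 0.07, edgeR adjusted p = 0.012). Neither was called at 24 or 72 h, and in DTL1 nuclei at 24 h both stood higher in the UNx mice, without passing. Replicates 1 to 5 of UNx 48 h had 25.8% to 26.4% mitochondrial counts against 14.0% to 15.5% in sham and 15.2% in UNx replicate 6. That replicate stood at 2.82 CPM for Corin, inside the sham range, at 14.3 for Jag1 and at 26.4 for Senp5, just below the lowest sham libraries. Without it the log2 differences were -1.60, -0.63 and -0.28. Mitochondrial counts of the 24 h libraries, of batch 1, ran from 21.5% to 26.7%. The part of the mitochondrial share, or of what lies behind it, in the differences at 48 h was not tested. At 48 h 5 leading genes passed without UNx replicate 6.

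**Figure D5:**
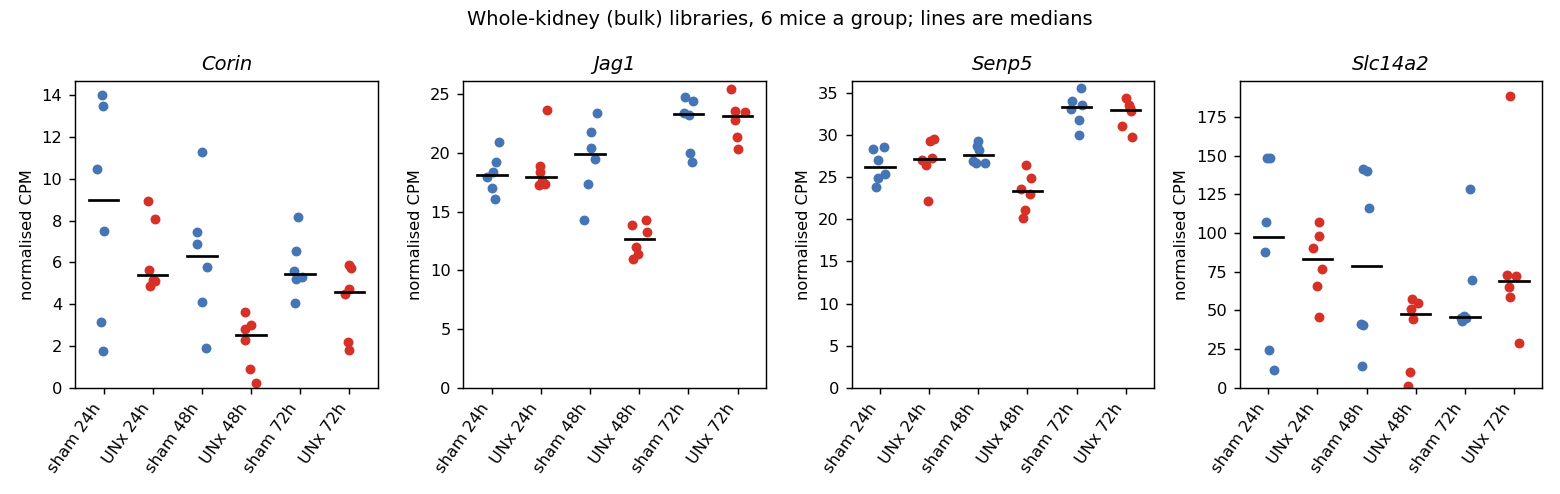
Normalised CPM of Corin, Jag1, Senp5 and Slc14a2 in the bulk libraries, 6 mice per group, with lines at the medians. At 48 h the UNx libraries lie below every sham library for Jag1 and Senp5 and overlap them for Corin.

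At 24 h Mcph1, a chromosome condensation and DNA damage response gene, rose by 0.54 (SE 0.12, edgeR adjusted p = 0.0038). It ran from 2.66 to 3.66 CPM in sham and from 4.07 to 5.39 in UNx, without overlap. Foxc1 fell by 0.47 (SE 0.13, edgeR adjusted p = 0.014), from a median of 13.3 to 8.80 CPM, and Shank2 fell by 0.27 (SE 0.08, edgeR adjusted p = 0.017), from 66.0 to 56.4. In both, 2 of the 6 UNx libraries lay below every sham library. In DTL1 nuclei at the same time Mcph1 stood at 1283 and 201 CPM in sham and 499 and 248 in UNx, and Foxc1 at 215 and 68.8 against 308 and 141. These nucleus differences did not pass. At 24 h 5 leading genes passed without sham replicate 4. BC016579 and Htr4 were not tested at any time, with at most 0.838 CPM in any bulk library.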

How the data were processed

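Both tables hold expected or estimated counts per gene as deposited by the authors. Per the submitters' processing notes, alevin, Seurat and the mm10 build were used for nuclei, and Salmon 1.5.0, FastQC 0.11.8, R 4.10 and GRCm39 for bulk RNA. How doublets were handled is not given in the sources used here. A doublet caller was not applied. Bulk totals ran from 14.9 to 24.1 M counts (M, 1000000).

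DTL1 counts were summed per mouse, rounded and tested with edgeR 4.0.16 (quasi-likelihood, TMM, filterByExpr, Benjamini-Hochberg over all tested genes) in R 4.3.3. DESeq2 1.42.0, limma 3.58.1, other filters, a replicate block and leaving out each library were alternatives. Differences between classes were interaction terms with the mouse as a block. The replicate numbers pair the nucleus samples through the labelled batch, and the deviations of sham 1 and UNx 1 correlated at 0.612 over 5205 genes. Members, lists and tests were chosen with earlier results of these data known. Text names the 10 genes of lowest p each way (skipping predicted names), list members of lowest p, 3 genes each way per class difference, the 20 leading genes, 10 against thin limbs and all descending limb markers. Further genes named for not overlapping, for their calls under the block or for their level in high and low nuclei were chosen after their values were seen. Some genes these rules select are not reported here. Coordinates are from GENCODE M21 (mm10). Scripts were tested on simulated data.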

Additional observations from a re-analysis of the deposited data

Results flagged for a closer look

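In the bulk libraries, single samples of the leading genes of DTL1 stood far from the other 5 of their group in 7 of 98 gene and group combinations, where chance gives about 1 in 20. UNx replicate 6 at 72 h was the highest for Hoxb6 (24.1 CPM, group median 12.8), 4930523C07Rik (24.5, median 10.3) and Hoxb5 (6.43, median 3.47). The same library had 189 CPM of Slc14a2, the highest of its group. Adgrv1 was lowest in UNx replicate 5 at 72 h, at 0.214 CPM against a median of 0.705. Jag1 was highest in UNx replicate 1 at 24 h, at 23.7 CPM against a median of 18.0. Asap3 was lowest in UNx replicate 6 at 24 h, at 5.02 against 7.09, and in UNx replicate 3 at 48 h, at 4.77 against 6.82.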

How the results depend on the processing

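With 2 mice per group and 20 to 61 nuclei per mouse, calls in DTL1 depended on the fit. The count of genes called for UNx against sham was 0, and 6 with no filter on low counts, 27 with the replicate block, and 0 to 20 when single mice were left out. For the difference from DTL2 it was 0, and 22 with the replicate block, 8 with no filter, and 0 to 36 without single mice. For DTL3-ATL it was 0, and 5, 4 and 0 to 20. For PTS3 it was 0, and 37, 4 and 0 to 57, with 1 in DESeq2's Wald test. The cause was not tested.

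The log2 ratio of the DTL1 share, 0.30 over all nuclei, was -0.046 among thin limb nuclei and ran from 0.023 to 0.53 without single mice. The share of high nuclei differed by -28.0 points at a threshold of 5, and by -23.7 to -27.5 without single mice. Among the 10 first leading genes, 1 was called in bulk at 24 h and 1 at 48 h. The calls ran from 3 to 5 at both times without single libraries. Bulk replicate numbers did not pair the samples, since 0, 0 and 2 of 6 same-numbered pairs at 24, 48 and 72 h correlated above 0.1. With a replicate block, all-gene calls were 3186, 4404 and 120 against 3852, 4696 and 249. The count for 72 h moved by more than 1.5 times, and leading genes called were 4, 2 and 0.

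In nuclei high in the 3 genes, Rras2 stood at -0.25 (-0.24 with the block). Slc14a2 stood at 0.058 (0.27) and Corin at 0.25 (0.50), and Htr4 at 0.0078 with the block. These nuclei were chosen by the summed rate of Slc14a2, Corin and Htr4. The differences of these 3 genes there are tied to that choice and add no separate evidence. Hbb-bt, at 0.34, was -0.48 with voom, -0.11 in nuclei of middle depth, and -0.074 without the nuclei of very high UMI total (-0.33 with the block). Pola1, at -0.05, was 0.047 with voom, 0.0043 with no filter and 0.026 in nuclei of middle depth. Leaving out single mice turned the direction of the following log2 differences, given as lowest to highest. Cldn10 ran from -2.10 to 0.18, Corin from -1.04 to 0.82, Egf from -3.76 to 2.21, Fkbp5 from -2.44 to 0.44 and Flt1 from -2.47 to 0.078. Fxyd4 ran from -0.42 to 2.46, Hbb-bt from -1.26 to 1.17, Htr4 from -2.01 to 0.85, Magi2 from -2.65 to 0.86 and Ndrg1 from -2.95 to 0.89. Pola1 ran from -1.65 to 0.63, Ppara from -2.54 to 1.14, Rplp1 from -0.10 to 1.59, Slc14a2 from -1.16 to 0.37 and Slc5a12 from -3.70 to 0.10. Slit3 ran from -0.40 to 1.72, Uqcrc2 from -0.97 to 0.088, mt-Atp8 from -0.64 to 4.33 and the Slc12a3 difference from DTL3-ATL from -2.92 to 0.12. The cause was not tested. Over all values for single genes under an alternative, 948 kept direction and side of the threshold, and 37 turned direction. With direction kept, 43 passed only under the alternative and 2 only in the main fit.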
